A study of Mus musculus with 8 samples.

Results

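The monocyte-derived and Ccr2 macrophage genes are 9 genes, Ccr2, Ly6c2, Plac8, Chil3, Fn1, Vcan, Napsa, S100a4 and Retnla. They are grouped here as genes of monocytes and of the heart macrophages that descend from them. Not all are particular to these cells, as given below for Retnla, Fn1, Vcan and S100a4. The genes were found by their symbols in a count table of 24516 genes, and 9 of 9 were listed. The table holds 8 libraries of total RNA from sorted heart macrophages, and the mice were C57BL/6 at postnatal day 28. In 4 libraries, E591, E592, E604 and E606, the cells were macrophages derived from the endocardium (EcTM), and in the other 4, N591, N592, N604 and N606, they were macrophages without that origin (non-EcTM). All mice, of both groups, had the genotype Nfatc1Cre/+; Rosa26Tomato reporter/+. Cre is made where Nfatc1, an endocardial transcription factor gene, is active, and it switches on a Tomato reporter that descendants keep. The sources used here do not give the gate of the sort. The number in a name pairs an EcTM with a non-EcTM library, but whether it stands for an animal, a litter or a processing batch is not given either. Nothing states that the libraries came from separate animals, so p-values measure only how these libraries vary, which may be technical.

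Heart macrophages come from embryonic precursors, which maintain themselves in the tissue, and from blood monocytes. Ccr2 is the receptor for the chemokine Ccl2 and draws monocytes out of the bone marrow and into tissue, and in mouse heart it separates macrophages fed by monocytes from the self-renewing residents. Ly6c2, Plac8 and Chil3 mark the classical monocyte itself, and monocytes that settle as macrophages turn them off. The question addressed here is how far each group of heart macrophages expressed the genes of this set. Csf1r, the receptor for the growth factor that every macrophage lineage needs, served as a yardstick.

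Library totals ran from 2152425 to 2576407 counts in EcTM and from 2281657 to 2937464 in non-EcTM. The sorted cells carried macrophage markers in both groups, and 18 macrophage identity genes summed to 31653 to 33297 CPM (counts relative to the scaled library total) in EcTM and 29364 to 31795 in non-EcTM, with Itgam (2 curated RefSeq transcripts) at 0. Csf1r had 5789.7, 5863, 5934 and 6281 CPM in E591, E592, E604 and E606, against 5671, 5443, 5840.4 and 5375 CPM in N591, N592, N604 and N606. EcTM exceeded non-EcTM in 4 of 4 pairs by a small amount, with a log2 fold change of 0.10 ± 0.04 (SE), an unadjusted p of 0.0344 and an adjusted p of 0.905 in edgeR. By mean CPM Csf1r ranked 11 among all genes. One limit of the table bears on these genes. Among protein-coding genes of the ribosome, proteasome, respiratory chain and chaperonin, chosen by name, the median total count over the 8 libraries was 555 for 135 genes with 1 curated RefSeq transcript. The same median was 43.5 where 38 genes had 2 such transcripts, and 9.5 where 26 genes had 3 or more. At 0 were 7 of the 135, 5 of the 38 and 10 of the 26. Over all coding genes the shares at 0 were close, 36.6% with 1 curated transcript and 38.7% with 2 or more, and some genes with several were high, such as Lgmn with 2 and 38011 counts. Counts of genes with several transcripts may therefore be low in some genes and not in others. Ccr2, Retnla, S100a4, Napsa, Chil3 and Csf1r have 1 curated transcript. Ly6c2 and Plac8 have 2, Vcan has 5 and Fn1 has 7.

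Of the 9 genes, 3 had enough counts to be tested, Ccr2, Retnla and S100a4. Retnla encodes a small secreted protein, RELM alpha, that mouse macrophages make in response to interleukin 4 through the factor STAT6, and S100a4 encodes a calcium-binding protein of motile cells. The 250 bases before a RefSeq transcription start of these 3 genes (GRCm38.p6, plus strand) are shown because these are the genes with enough counts for a test. Capitals mark matches to 5 short motifs searched on both strands, GAGGAA for PU.1, TTNNGCAA for C/EBP factors, TTC and GAA with 4 bases between them for STAT6, TGANTCA for AP-1 and TATAAA for a TATA box.
Ccr2, chr9:124101933-124102182: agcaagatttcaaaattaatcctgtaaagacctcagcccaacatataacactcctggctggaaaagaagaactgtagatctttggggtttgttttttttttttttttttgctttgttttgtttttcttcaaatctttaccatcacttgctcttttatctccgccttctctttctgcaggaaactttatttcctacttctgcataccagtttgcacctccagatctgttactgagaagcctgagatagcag
Retnla, chr16:48842359-48842608: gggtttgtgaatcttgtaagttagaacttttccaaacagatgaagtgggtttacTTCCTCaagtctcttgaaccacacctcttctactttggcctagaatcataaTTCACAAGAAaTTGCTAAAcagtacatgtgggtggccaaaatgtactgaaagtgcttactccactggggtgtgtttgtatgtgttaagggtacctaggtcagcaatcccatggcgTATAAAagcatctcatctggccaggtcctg
S100a4, chr3:90603520-90603769: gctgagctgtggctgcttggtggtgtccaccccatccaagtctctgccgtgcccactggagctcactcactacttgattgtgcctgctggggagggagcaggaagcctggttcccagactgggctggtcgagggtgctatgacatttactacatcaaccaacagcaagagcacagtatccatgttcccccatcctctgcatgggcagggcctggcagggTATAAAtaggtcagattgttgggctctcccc
Retnla held 4 matches, a PU.1 core that begins at -196, a STAT6 motif at -145, a C/EBP motif at -134 and a TATA box at -30, counted from the start site. The STAT6 and C/EBP matches do not overlap. S100a4 held a TATA box at -31, and Ccr2 held 0 matches in this window. The Ccr2 window lies inside the coordinates of the gene, which begin at 124101918, so it is not the sequence upstream of the gene. Over 32851 windows of the same length, 23.3% held the PU.1 core, 9.56% the C/EBP motif, 5.85% the STAT6 motif, 6.75% the AP-1 motif and 12.4% the TATA box. A match is a run of letters, and no binding was measured. Of the 9 genes, 7 had a window in the reference.

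Ccr2 (chromosome 9, 124101918 to 124109140, GRCm38) was present in 8 of 8 libraries. EcTM had 102, 119, 124 and 54 reads in E591, E592, E604 and E606, against 239, 128, 163 and 128 in N591, N592, N604 and N606. After scaling this gave 48.6, 53.2, 54.4 and 21.3 CPM in EcTM, against 94.9, 50.1, 71.1 and 42.2 CPM in non-EcTM, in the same order of numbers. The groups overlapped, N591 stood highest and E606 lowest, and EcTM was lower in 3 of 4 pairs, with E592 and N592 nearly even. The mean was 44.4 ± 15.6 CPM in EcTM, against 64.6 ± 23.6 CPM in non-EcTM (SD, n = 4 each), a log2 fold change of -0.56 ± 0.24 (SE). The unadjusted p was 0.0292 and the adjusted p 0.897 over 7667 genes, in edgeR's quasi-likelihood test with the number as a block. Ccr2 therefore did not pass the threshold of 0.05, and the adjusted p over the alternatives with one ran from 0.72 to 1. In bulk RNA, fewer cells that express a gene and less of its RNA in each cell cannot be told apart.

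Retnla (chromosome 16, 48842609 to 48844461) gave the same picture with a wider spread. It had 41.9, 41.1, 36.8 and 11.1 CPM in E591, E592, E604 and E606, from 88, 92, 84 and 28 reads. It had 94.9, 52.1, 42.7 and 27.1 CPM in N591, N592, N604 and N606, from 239, 133, 98 and 82 reads. EcTM was lower in 4 of 4 pairs, although the groups overlapped, since N606 lay below E591, E592 and E604. Such a direction in 4 of 4 pairs was seen in 6.89% of all tested genes. The mean was 32.7 ± 14.6 CPM in EcTM, against 54.2 ± 29.0 CPM in non-EcTM (SD, n = 4 each), and the log2 fold change was -0.74 ± 0.27 with an unadjusted p of 0.0108 and an adjusted p of 0.778 in edgeR.

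S100a4 (chromosome 3, 90603770 to 90606045) had 23.3, 29.0, 17.1 and 26.9 CPM in E591, E592, E604 and E606, against 36.5, 35.2, 34.5 and 26.7 CPM in N591, N592, N604 and N606. N591, N592 and N604 lay above every EcTM library, and N606 lay inside the EcTM range. The mean was 24.1 ± 5.21 CPM in EcTM, against 33.2 ± 4.42 CPM in non-EcTM (SD, n = 4 each), with a log2 fold change of -0.47 ± 0.31, an unadjusted p of 0.137 and an adjusted p of 0.946 in edgeR. The largest gap within a pair was between E604 and N604, at -0.98 on the log2 scale, and E606 and N606 were even at 0.01.

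**Figure D1:**
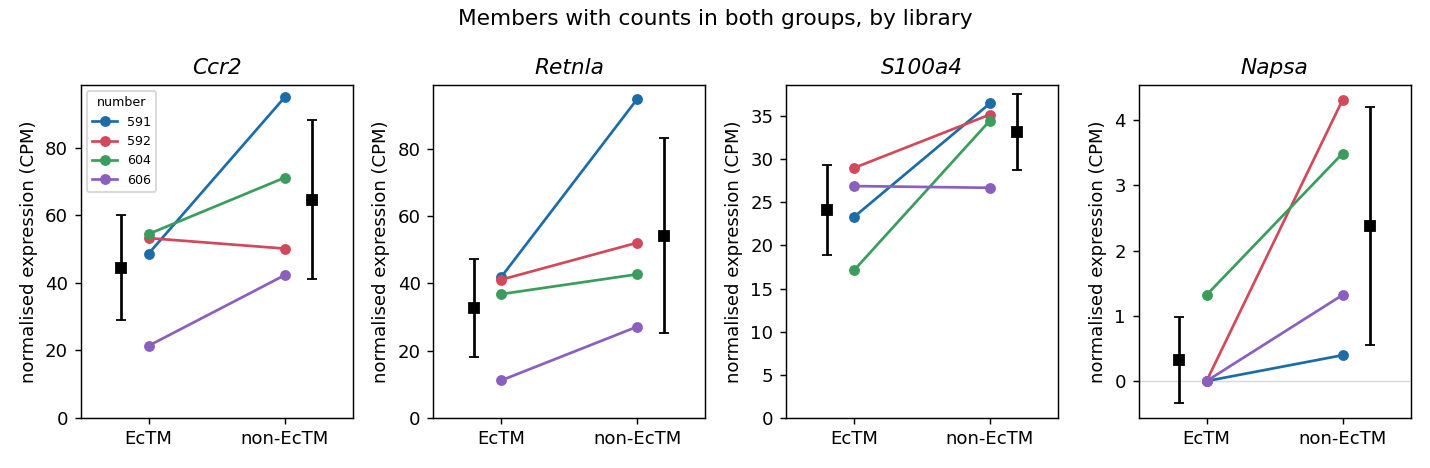
Normalised expression (CPM) of Ccr2, Retnla, S100a4 and Napsa in each library, with lines joining each EcTM library to its non-EcTM partner, and group means ± SD as black squares (n = 4). Retnla and Napsa are lower in EcTM in 4 of 4 pairs, Ccr2 and S100a4 in 3 of 4, and the group ranges overlap for all 4 genes.

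Of these 3 tested genes 0 passed the threshold in edgeR, against 0.013% of all tested genes (1 of 7667, Itga9, a gene outside this set named after its value was seen). At an unadjusted p under 0.05, 2 of the 3 were lower in EcTM, where 2.63% of all tested genes were (5.4% in either direction). That result depended on the fit. In edgeR without the block, the unadjusted p was 0.0991 for Ccr2 and 0.0882 for Retnla. Without E591 and N591 it was 0.142 and 0.0816 in that order, and without E606 and N606 it was 0.122 and 0.0555. It stayed under 0.05 for both without E592 and N592 (0.00901 and 0.0116) and without E604 and N604 (0.0454 and 0.00634). The groups failed to overlap for 0 of the 3, while all EcTM libraries lay below all non-EcTM libraries for 1.41% of all tested genes. Limma-voom called 0 of the 3, with adjusted p-values of 0.508 for Retnla, 0.72 for Ccr2 and 0.904 for S100a4. DESeq2 gave none of them an adjusted p, since its filter on mean counts removed them, and unadjusted p-values of 0.00669, 0.0229 and 0.126 in the same order. The median log2 fold change over all 7667 genes was -0.01.

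**Figure D2:**
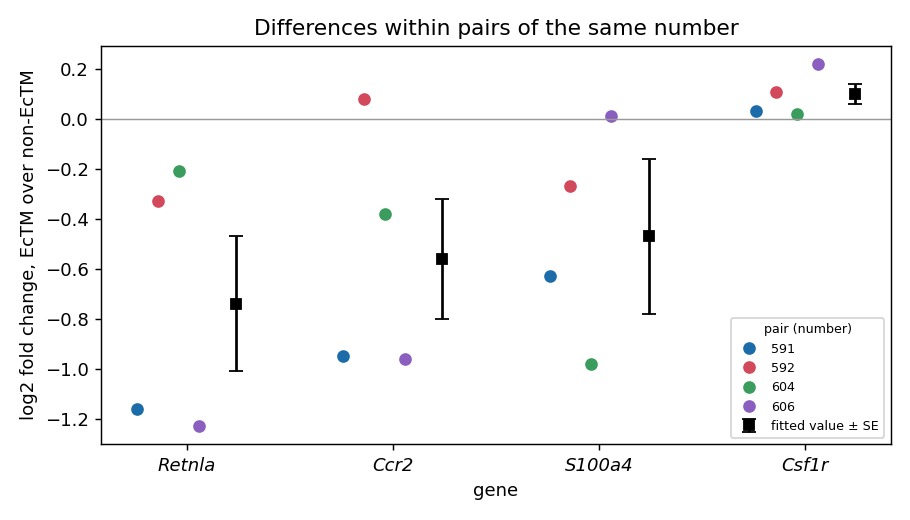
Log2 fold change of EcTM over non-EcTM within each pair of libraries (coloured points) and the fitted value ± SE from edgeR with the number as a block (black squares), for Retnla, Ccr2, S100a4 and the yardstick Csf1r. The pair values of Retnla run from -1.23 to -0.21, those of Ccr2 from -0.96 to 0.08 and those of S100a4 from -0.98 to 0.01, while Csf1r stays between 0.02 and 0.22.

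The other 6 genes were at or near the limit of detection. A library with no count of a gene could still have held 3 counts, which corresponded to 0.99 to 1.43 CPM, a limit of counting error only. Napsa, which encodes an aspartic protease found in monocytes and some dendritic cells, had 0, 0, 3 and 0 reads in E591, E592, E604 and E606, against 1, 11, 8 and 4 reads in N591, N592, N604 and N606. EcTM was lower in 4 of 4 pairs, as were 5.09% of the 2788 genes with 10 to 50 counts in all. Pooled over libraries, 3 reads in EcTM and 24 in non-EcTM gave a ratio of 0.138 with an exact 95% interval of 0.0267 to 0.456, which covers counting error and not the spread between libraries. In edgeR without a filter on low counts, a fit added for Napsa after its counts were seen, the log2 fold change was -3.45 ± 2.44 with an unadjusted p of 0.159 and an adjusted p of 0.992.

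Ly6c2, the gene of the surface antigen that defines classical monocytes in mouse, had 0 reads in 4 of 4 EcTM libraries and 9, 0, 0 and 1 reads in N591, N592, N604 and N606. Measured against a limit of 3 reads over the group, that is at least 3.01-fold lower in EcTM if the non-EcTM reads are taken as exact. The counting error of those reads is left out of this bound. Of the 10 reads, 9 came from N591, and the other 3 non-EcTM libraries together had 1. Plac8, a small cysteine-rich protein gene of monocytes, had 0 reads in EcTM and 2, 0, 4 and 0 in N591, N592, N604 and N606. By the same limit, and with its non-EcTM reads again taken as exact, Plac8 was at least 1.81-fold lower in EcTM. Of its 6 reads 4 came from N604, and the 2 left without that library are under the limit and give no bound. The 1 read of Ly6c2 outside N591 gives none either. In edgeR without a filter, added after the counts were seen, Ly6c2 had a log2 fold change of -3.23 ± 3.14 (unadjusted p 0.304) and Plac8 one of -3.10 ± 3.26 (unadjusted p 0.341), with an adjusted p of 0.992 for both. Ly6c2 and its relative Ly6c1 share sequence, and 32.6% of the 50-base words in the longest Ly6c2 transcript occur in Ly6c1, so some reads could have come from either. Ly6c1, which endothelial cells express, was at 0 in 8 of 8 libraries, with 5 curated transcripts.

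Chil3, which encodes the chitinase-like lectin Ym1, had 2 reads in N606 and 0 in the other 7 libraries. It shares 18.5% of its 50-base words with Chil4, which had 0 reads. Chil3 has 1 curated transcript, and its upper limit over the 4 EcTM libraries was 0.322 CPM. Fn1, the gene of the matrix protein fibronectin, had 1 read in E591, 2 in E604 and 0 elsewhere. Vcan, the gene of the proteoglycan versican, was listed at 0 in 8 of 8 libraries. With 7 and 5 curated transcripts, Fn1 and Vcan may be among the genes whose counts are low in this table, and their levels are not read as absence. The same holds for Ly6c2 and Plac8, which have 2 curated transcripts each.

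**Figure D3:**
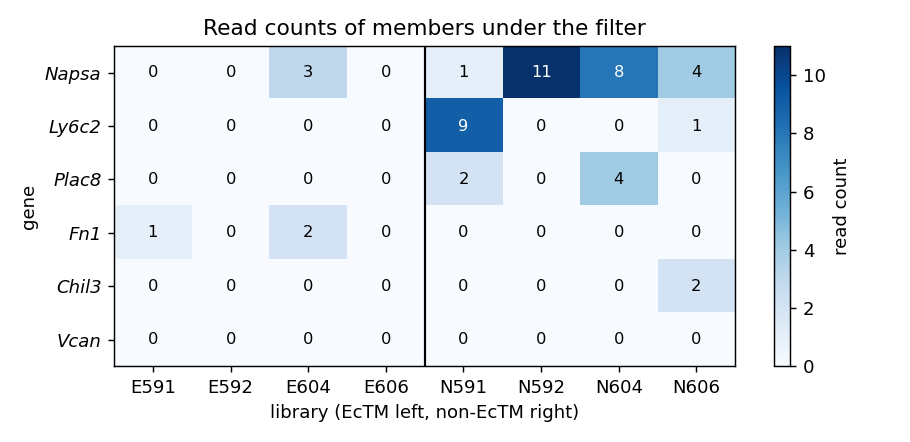
Read counts of the 6 genes that the filter on low counts removed, with one column per library (EcTM left of the line, non-EcTM right) and darker blue for more reads. Napsa reads lie mostly in N592, N604 and N606, Ly6c2 reads in N591, and Vcan has 0 in every library.

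Per length, the 3 tested genes stood far below Csf1r in both groups. Retnla had 54.6 ± 24.4 CPM per kilobase of transcript in EcTM and 90.5 ± 48.5 in non-EcTM (SD, n = 4 each). S100a4 had 48.4 ± 10.5 in EcTM and 66.7 ± 8.87 in non-EcTM. Ccr2 had 14.8 ± 5.19 in EcTM and 21.5 ± 7.87 in non-EcTM, and Napsa 0.211 ± 0.422 in EcTM and 1.52 ± 1.17 in non-EcTM. Csf1r had 1542 ± 56.2 in EcTM and 1442 ± 55.2 in non-EcTM on the same scale. Retnla and S100a4 did not differ beyond their spread in either group, and the means of both lay above that of Ccr2. This order depends on the division by length, since in CPM the mean of Ccr2 was the highest of the 3 in both groups. In percent of Csf1r per length, Ccr2 reached 0.968% ± 0.356 in EcTM and 1.48% ± 0.508 in non-EcTM, and Retnla 3.59% ± 1.66 in EcTM and 6.24% ± 3.27 in non-EcTM. S100a4 reached 3.14% ± 0.67 in EcTM and 4.62% ± 0.544 in non-EcTM.

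Set against Csf1r within each library, the differences became slightly larger, since Csf1r itself was higher in EcTM. Per 1000 Csf1r reads, Ccr2 had 8.39, 9.07, 9.16 and 3.39 reads in E591, E592, E604 and E606, against 16.7, 9.2, 12.2 and 7.86 in N591, N592, N604 and N606. Retnla had 7.24, 7.01, 6.21 and 1.76 reads in EcTM and 16.7, 9.56, 7.32 and 5.04 in non-EcTM, in the same order. S100a4 had 4.03, 4.95, 2.88 and 4.27 reads in EcTM and 6.44, 6.47, 5.9 and 4.97 in non-EcTM. The ratio of each of these 3 genes to Csf1r was lower in EcTM in 4 of 4 pairs, for Ccr2 by as little as -0.02 on the log2 scale between E592 and N592. The same held for 11.6% of the other tested genes (892 of 7666), and without division by Csf1r 1 of the 3, Retnla, was lower in 4 of 4. The mean differences of the log2 ratio were -0.65 with an SD of 0.53 for Ccr2, -0.83 with 0.59 for Retnla, -0.56 with 0.34 for S100a4 and -1.50 with 0.93 for Napsa (n = 4 pairs). The Napsa value depended on the prior count and was -2.65 with a prior count of 0.5 in place of 2. A two-sided exact sign-flip permutation test gave 0.125 for each of 6 genes compared, the smallest p that 4 pairs allow. For Ly6c2 and Plac8 the pairs with 0 reads in both libraries carry the difference of Csf1r and the prior count alone, so their means of -0.82 and -0.75 are not read further.

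Retnla passed the threshold in the test between the numbers. From high to low the order was E591, E592, E604, E606 in EcTM and N591, N592, N604, N606 in non-EcTM, with pair means of 68.4, 46.6, 39.8 and 19.1 CPM. E591, E592 and E604 lay close together, at 41.9, 41.1 and 36.8 CPM, so the order among them is not read. The highest number was 3.52-fold above the lowest on the log2 CPM scale. In edgeR's test of the numbers, with the group in the model, Retnla had an adjusted p of 0.0317, past the threshold that 3.04% of all tested genes passed (233 of 7667). Without the group in the model the adjusted p was 0.0884. Ccr2 had means of 71.8, 51.6, 62.7 and 31.8 CPM in the same order of pairs, and E606 and N606 were the lowest of their groups. Its adjusted p was 0.221, with 0.0134 before adjustment. S100a4 had 29.9, 32.1, 25.8 and 26.8 CPM and an adjusted p of 0.974. E592 and N592 were low in Xist, with 1 and 8 counts against 935 to 1682 in the others, and high in the Y-linked Ddx3y, with 260 and 307 against 1 to 7. Without E592 and N592, Retnla had an adjusted p of 0.035 between the remaining 3 numbers.

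**Figure D4:**
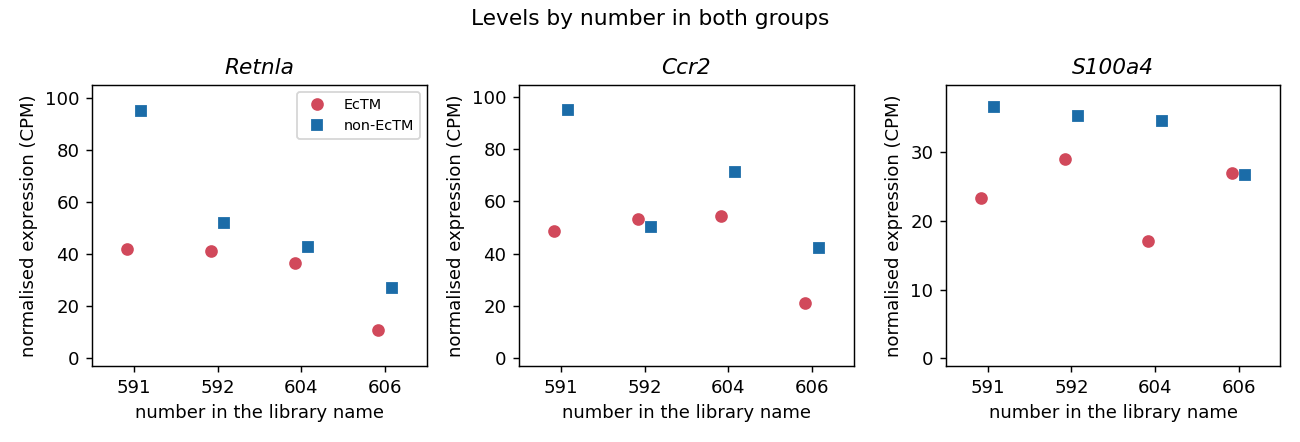
Normalised expression (CPM) of Retnla, Ccr2 and S100a4 by the number in the library name, with circles for EcTM and squares for non-EcTM. Retnla and Ccr2 are lowest in E606 and N606, E591, E592 and E604 lie close together for Retnla, and S100a4 shows no common order.

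The profiles of Ccr2 and Retnla over the 8 libraries resembled each other. Likeness was measured as the root mean square difference of log2 CPM after each gene's mean was removed. At 0.322, Ccr2 ranked 3 among all tested genes in nearness to Retnla, for which the median gene stood at 0.891. Retnla ranked 20 in nearness to Ccr2. The genes nearest to Ccr2 were Adgre4, an adhesion receptor gene of mouse myeloid cells, at 0.2, the phosphoglucomutase gene Pgm2 at 0.222 and Zscan18 at 0.226. Nearest to Retnla before Ccr2 were Eps15l1 at 0.228 and Zscan18 at 0.319. S100a4 lay apart from both, at 0.554 from Ccr2 and 0.738 from Retnla, and nearest to it were the sialidase gene Neu1 at 0.108, Mir22hg at 0.137 and Fgd6 at 0.141.

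The ligands of Ccr2 were read beside the receptor. Of 4 ligand genes 3 were tested and 0 passed in edgeR, with 0 at an unadjusted p under 0.05 and 0 in limma-voom and DESeq2. Ccl2, its main ligand, had a log2 fold change of -0.08 ± 0.10, from 432 ± 125 CPM in EcTM, against 448 ± 83.8 CPM in non-EcTM. Ccl7 had 0.19 ± 0.19 and Ccl12 had 0.17 ± 0.17, and Ccl8 had 52 reads in all and was not tested. Ccl2 differed between numbers, with an adjusted p of 0.00226 in edgeR.

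Further genes of the classical monocyte were listed. Of 19 listed, 8 were tested, and 0 passed in edgeR or limma-voom, nor any of the 6 that DESeq2 gave an adjusted p. The median log2 fold change was -0.11, and 0 of the 8 had an unadjusted p under 0.05 in edgeR. All 8 fold changes were below 0, as were those of 3950 of all 7667 tested genes. The guanine deaminase gene Gda had 113 ± 29.4 CPM in EcTM, against 136 ± 37.4 CPM in non-EcTM, a log2 fold change of -0.25 ± 0.17. The integrin chain gene Itga4 had -0.09 ± 0.10 and the antiviral membrane protein gene Ifitm3 -0.11 ± 0.13. F13a1, the gene of coagulation factor XIII chain A, had 0, 134, 170 and 0 CPM in E591, E592, E604 and E606, against 105, 123, 122 and 0.66 CPM in N591, N592, N604 and N606. It was thus near 0 in 3 libraries and above 100 CPM in the rest, and it has 2 curated transcripts. Its log2 fold change was -0.86 ± 0.58, and it differed between numbers with an adjusted p of 0.000164 in edgeR. Of the 19 genes 7 were listed at 0 in all libraries, among them Hp, Cebpb and S100a9, and 7 of these 7 have at least 2 curated transcripts.

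Of 10 genes of the nonclassical monocyte, the patrolling form in blood vessels, 4 were tested. Their median log2 fold change was 0.20 and 0 passed in edgeR. Nr4a1, the transcription factor gene that this form needs, had 2007 ± 356 CPM in EcTM, against 1729 ± 319.7 CPM in non-EcTM, a log2 fold change of 0.22 ± 0.06 with an unadjusted p of 0.00109 and an adjusted p of 0.434. DESeq2 and limma-voom, both paired, each called this gene alone among the 4. Over all genes DESeq2 called 26 of 2660 and limma-voom 19 of 7667. Cx3cr1, the fractalkine receptor gene, had 0.11 ± 0.07, and Itgax and Spn had 0.67 ± 0.50 and 0.18 ± 0.19.

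Relatives of these genes were read beside them. Of 8 other S100 genes 5 were tested and 0 passed in edgeR or limma-voom, with none (0) under an unadjusted p of 0.05. DESeq2 gave 1 of them an adjusted p. Their median log2 fold change was 0.02, and that of S100a4 was -0.47. S100a10 had -0.20 ± 0.12, S100a13 -0.20 ± 0.27, S100a1 0.11 ± 0.29 and S100a11 0.13 ± 0.34. No resistin-like or chitinase-like relative and no Ly6 relative was tested, since all 7 and all 6 were too low. For fibronectin and versican, whose own counts say little, 6 of 7 receptor genes were tested and 0 passed in edgeR or limma-voom, nor any of the 4 with an adjusted p in DESeq2, and 0 had an unadjusted p under 0.05. Itgav had -0.17 ± 0.12, Itga5 0.79 ± 0.65, Itgb1 0.08 ± 0.08 and Itga4 the value above.

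Retnla belongs to the genes of alternative activation, the response of macrophages to interleukin 4. Of 11 other such genes 7 were tested, and 0 passed in edgeR or limma-voom, nor any of the 6 with an adjusted p in DESeq2. Their median log2 fold change was 0.02. The lectin gene Mgl2 was the 1 gene of the 7 with an unadjusted p under 0.05, at -0.20 ± 0.08 with 0.029 and an adjusted p of 0.897. Mgl2 was lower in EcTM in 4 of 4 pairs, as were 6.89% of all tested genes. It differed between numbers with an adjusted p of 0.000779 in edgeR, where 3.04% of all tested genes passed. Ccl24 had -0.25 ± 0.18, the receptor chain gene Il4ra 0.05 ± 0.08 and Stat6 0.02 ± 0.09.

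Resident macrophage genes and the general macrophage genes were read beside the monocyte genes. Of 16 resident genes 12 were tested, with a median log2 fold change of -0.05 and 0 passed in edgeR or limma-voom. At an unadjusted p under 0.05, 4 of the 12 were lower in EcTM, where 2.63% of all tested genes were. They were Cbr2 at -0.30 ± 0.08, Ednrb at -2.56 ± 0.83, the phosphatidylserine receptor gene Timd4 at -0.44 ± 0.15 and the ficolin gene Fcna at -0.45 ± 0.16. DESeq2 called Cbr2 among them. Of 18 macrophage identity genes 16 were tested, with a median of 0.09 and 0 passed in edgeR. At an unadjusted p under 0.05, 5 of the 16 were higher in EcTM, where 5.4% of all tested genes differed in either direction. Among the 5 were Csf1r, Cd14 at 0.26 ± 0.06, Mpeg1 at 0.28 ± 0.07 and Lgmn at 0.17 ± 0.06. DESeq2 called 4 of the 16, Cd14, Mpeg1 and Lgmn among them, and limma-voom called 3, Cd14 and Mpeg1 among them. Over all genes DESeq2 called 26 of 2660 and limma-voom 19 of 7667.

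**Figure D5:**
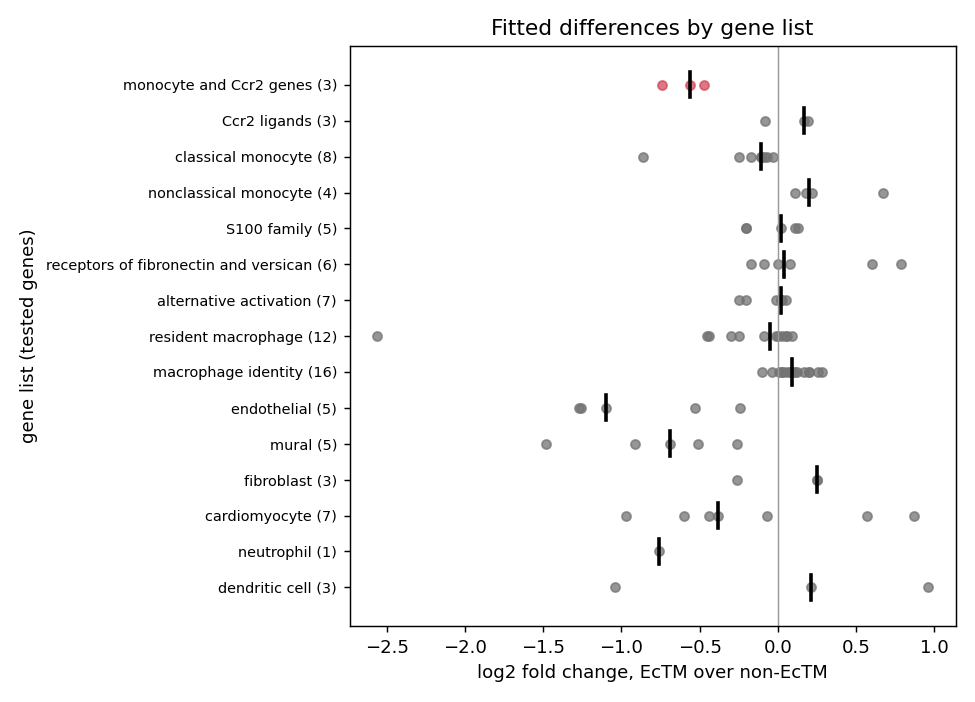
Fitted log2 fold changes (EcTM over non-EcTM, edgeR with the number as a block) of the tested genes of each list, with black bars at the list medians, red points for Retnla, Ccr2 and S100a4 and the number of tested genes in brackets. The red points lie at -0.74, -0.56 and -0.47, the classical monocyte median at -0.11 and the endothelial median at -1.10.

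Markers of other heart and blood cells varied between these libraries. The summed level of 12 endothelial genes was 43 to 337 CPM in EcTM and 92 to 930.1 CPM in non-EcTM, and N591, the library highest in Ccr2, Retnla and Ly6c2, held the maximum. The other non-EcTM libraries reached at most 150.5 CPM. E591 held 337 CPM, and E606, the library lowest in Ccr2 and Retnla, held 237 CPM. Pecam1, Tek, Emcn and Erg were at 0. Of 5 tested endothelial genes 0 passed in edgeR. At an unadjusted p under 0.05, 3 of the 5 were lower in EcTM, where 2.63% of all tested genes were. They were Kdr at -1.26 ± 0.41, Ptprb at -1.10 ± 0.36 and Flt1 at -1.27 ± 0.55. Tie1 had -0.53 ± 0.51, and limma-voom, with 19 calls over all 7667 genes, called Ptprb. The 10 mural genes summed to 79.5 to 99.6 CPM in EcTM and 77.5 to 295 in non-EcTM, with Pdgfrb, Myh11, Kcnj8 and Abcc9 at 0. The 10 fibroblast genes, a source of Fn1, Vcan and S100a4 in heart, summed to 27.2 to 134 CPM in EcTM and 31.4 to 210.5 in non-EcTM, with Pdgfra and Postn at 0. The 10 cardiomyocyte genes summed to 78.1 to 144 in EcTM and 93.5 to 175 in non-EcTM, with Myh6, Tnnt2 and Pln at 0. In the mural, fibroblast and cardiomyocyte lists 0 of 5, 0 of 3 and 0 of 7 tested genes passed in edgeR or limma-voom, and DESeq2 gave them no adjusted p. At an unadjusted p under 0.05 there was 1 of these, the mural gene Mylk at -0.91 ± 0.27.

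Markers of other blood cells were low. The 10 neutrophil genes summed to 10 to 27.6 CPM in EcTM and 24 to 44.5 in non-EcTM, most of it Mmp9 (log2 fold change -0.76 ± 0.40, not passed), with S100a9, Ly6g and Camp at 0. The 10 dendritic cell genes summed to 29.2 to 54.3 in EcTM and 30.9 to 38.4 in non-EcTM, with Clec9a, Ccr7, Siglech and Irf4 at 0. Of these 3 were tested and 0 passed, Flt3 at 0.96 ± 0.62, Zbtb46 at -1.04 ± 0.98 and Batf3 at 0.21 ± 0.36. Lymphocyte genes summed to 0.953 to 11.5 CPM in EcTM and 0.397 to 4.8 in non-EcTM, with Cd8a, Nkg7, Klrb1c and Cd79b at 0.

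Without E591 and N591, the log2 fold changes were -0.41 ± 0.27 for Ccr2, -0.58 ± 0.32 for Retnla and -0.41 ± 0.34 for S100a4. With N591 alone left out of a fit without pairs, added after that library was seen to stand apart, they were -0.30 ± 0.31, -0.31 ± 0.39 and -0.41 ± 0.32. Without E606 and N606, the lowest in Ccr2 and Retnla, they were -0.43 ± 0.26, -0.59 ± 0.29 and -0.64 ± 0.36. The part of other cell types in these differences was not tested beyond these values.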

How the data were processed

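Per the labels' protocols, total RNA of sorted cells went into a stranded kit for very small inputs. Per the submitters' processing notes, bcl2fastq 2.17, TopHat, DESeq2 and R 3.2 were used with mm10. The sources used here name no counting program, annotation or strand setting. The authors deposited counts per gene, whole numbers that were used for all values here, and log2 values under a header that names CPM, which were not used.

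Genes were kept with edgeR's filterByExpr, which left 7667 genes with 99.3% of all counts. The main test was the quasi-likelihood F-test in edgeR 4.0.16 (R 4.3.3), with TMM scaling, the number as a replicate block and Benjamini-Hochberg adjustment over all tested genes at 0.05. The same model tested the numbers. Limma 3.58.1 (voom) and DESeq2 1.42.0 were alternatives. CPM include the TMM scaling, and a prior count of 2 was added for log2 CPM. A fitted SE is the log2 fold change divided by the root of its F.

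The pairing by number was set in the design and then checked on the counts. After removal of group means, libraries of the same number had correlations across genes of 0.12 to 0.19, all over 0.1, and others -0.13 to 0.05. Deviations from a group mean sum to 0, so positive values within numbers push the others down. The contrast between them is therefore partly built in. Genes are not independent replicates. RefSeq on GRCm38.p6 held 24447 of the genes by Entrez number and gave coordinates, transcript numbers and promoter windows. Transcript lengths are those of the matched GENCODE M21 transcripts. Plots used matplotlib 3.10.9 (Python 3.11.15).

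The 9 genes and the 17 other lists were chosen with earlier results of these data known. All 9 genes and Csf1r are named. From each list up to 4 tested genes with the smallest unadjusted p are named, and for each tested member the 3 nearest genes in profile. Genes listed at 0, relatives that share sequence, Ccl8, Xist, Ddx3y and Itga9 are named beside this rule, after their values were seen. Some genes of the lists are not reported here by name.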

Additional observations from a re-analysis of the deposited data

Results flagged for a closer look

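In groups of 4 libraries, a single library stood apart from the other 3 by Dixon's 95% limit in 11 of 109 groups of values examined. Chance flags about 1 in 20 groups. Among the 9 genes there were 2. Retnla was at 11.1 CPM in E606 and at 36.8 to 41.9 in the other EcTM libraries. Ly6c2 was at 3.57 CPM in N591 and at 0 to 0.33 in the other non-EcTM libraries. Among listed genes, F13a1 was at 0.66 CPM in N606 and at 105 to 123 in the other non-EcTM libraries.

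N591 stood apart in 5 genes of vessels and connective tissue, with 194 CPM of Kdr (32.9 to 41.4 in the other non-EcTM libraries), 244 of Ptprb (21.5 to 41.0), 189.8 of Flt1 (9.39 to 18.5), 130.3 of Col3a1 (12.6 to 23.4) and 20.7 of Col1a2 (3.13 to 4.8). E591 stood apart in 3, with 76.2 CPM of Col3a1 (12.1 to 22.8 in the other EcTM libraries), 41.9 of Col1a1 (5.53 to 6.7) and 10 of the cardiomyocyte gene Tnni3 (5.7 to 5.92).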

How the results depend on the processing

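Over 21 alternatives each, the log2 fold change stayed below 0 for Ccr2 (-0.77 to -0.30), Retnla (-0.95 to -0.31) and S100a4 (-0.64 to -0.31), and none of the 3 passed in any that gave an adjusted p (paired DESeq2 gave none). Their ratios to Csf1r stayed below 0 in 6 of 6 alternatives each, but this sign could hardly change. All 4 pairs were below 0, so leaving out 1 number cannot turn the mean, and library scaling largely cancels in a ratio. Leaving out 1 number gave ratios of -0.86 to -0.47 for Ccr2, -1.03 to -0.62 for Retnla, -0.68 to -0.42 for S100a4 and -1.8 to -1.08 for Napsa. Ly6c2 had -1.09 to -0.28 and Plac8 -0.97 to -0.45, which are not read further because of their pairs with 0 reads in both libraries. On raw counts without scaling, the sign-flip test gave 0.375 for Ly6c2 and 0.5 for Plac8, against 0.125 in the main setting. With a prior count of 0.5 the ratios of low genes moved by over 1.5 times, to -2.65 for Napsa, -1.49 for Ly6c2 and -1.48 for Plac8. The Retnla difference between numbers passed in 9 of 10 alternatives, with adjusted p-values of 0.00196 to 0.0884.

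The count of genes called between the groups was 1. It was 0 with no replicate block (257 at an unadjusted p under 0.05), 0 with robust dispersions (411) and 0 among genes with 1 curated transcript (280), all in edgeR. It was 10 with no filter on low counts, 19 in paired limma-voom and 26 in paired DESeq2, and 1 to 2 when 1 number was left out. The count between numbers was 233, and it was 442 in DESeq2, 350 with no filter and 146 without E592 and N592. The cause of these changes was not tested. At these depths, Ly6c2, Plac8, Chil3 and Napsa are limited by counting. Ly6c2 and Plac8 have 2 curated transcripts each, so a low level and a loss of counts cannot be told apart for them.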
